A study of Mus musculus with 6 samples.

Results

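The transcription factors that specify and maintain the macrophage lineage were followed in chronic stroke infarcts and in cortex of the opposite hemisphere. The 9 genes are *Spi1*, *Runx1*, *Ikzf1*, *Irf1*, *Irf5*, *Irf8*, *Cebpa*, *Cebpb*, and *Maf*. They were selected as a list of gene names, with no cutoff on measured values but with earlier results of these data known. By Ensembl identifier they were matched among the 46078 genes of the count tables. All 9 were found, and all 9 were among the 15554 genes that passed the filter on low counts. The tissue came from male wild type C57BL/6J mice with a recorded age of 3 months, taken 7 weeks after stroke. Stroke was made by permanent occlusion of the distal middle cerebral artery followed by hypoxia. The infarct group holds 3 libraries of infarct tissue that was recognized by eye and cut out, and the contralateral group holds 3 libraries of the matching cortex of the other hemisphere. The records name no drug or vehicle for these mice, and the contralateral cortex comes from mice that also had a stroke and hypoxia. They do not say which libraries share a mouse, or that the 3 libraries of a region come from separate mice, so *p* values measure only the spread between these libraries.

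Macrophages and microglia are made and kept by a small set of DNA-binding proteins that act on the same enhancers. PU.1, the product of *Spi1*, is an ETS-family factor that opens chromatin at myeloid genes and drives the receptor for the growth factor CSF1. RUNX1 is needed for the first blood stem cells and works beside PU.1, and Ikaros, the product of *Ikzf1*, is a zinc finger factor of lymphoid and myeloid cells. Interferon regulatory factors read cytokine and pattern receptor signals. IRF8 pairs with PU.1 on composite sites and is required for microglia and monocytes, IRF5 acts below toll-like receptors, and IRF1 is induced by interferon gamma. C/EBPα directs progenitors to the granulocyte and monocyte fate, and C/EBPβ takes part in inflammatory activation and in survival of some monocytes. c-MAF, the product of *Maf*, is found in tissue macrophages, restrains their self-renewal, and is also used by cortical interneurons, among other cells.

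Expression is given as CPM, the counts of a gene scaled to a common library size with edgeR's TMM method, with the mean ± SD over the 3 libraries of a region. Library totals on genes ranged from 12146959 to 13427057 counts in infarcts and from 11943570 to 19933962 in contralateral cortices. Across genes, which are not independent replicates, log2 CPM correlated at 0.957 to 0.988 within a region and at 0.666 to 0.784 between regions. Neuronal genes separated the regions as labeled. All 8 pan-neuronal markers were downregulated in infarcts, where their summed level was 632, 885, and 1608 CPM in libraries 1 to 3, against 8767 to 9523 CPM in contralateral cortices. Values here are on the TMM scale, and plain library totals would move the median over all tested genes by 0.20 (log2).

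All 9 factors were upregulated in infarcts. Log2 fold changes ran from 1.41 for *Maf* to 5.29 for *Runx1*, with a median of 4.11 beside 0.03 for all tested genes. Genes were called with an adjusted *p* below 0.05 and a log2 fold change beyond 1, and by this rule 25.7% of tested genes were upregulated and 20.9% were downregulated. A log2 fold change over 4 was reached by 5 of the 9 factors, *Runx1*, *Spi1*, *Irf8*, *Irf5*, and *Cebpa*, and by 6.16% of tested genes. The cutoff of 4 was not a threshold for calls, and it lies between *Cebpa* (4.11) and *Ikzf1* (3.88). The count of 5 depends on it, since *Cebpa* had 3.99 without contralateral cortex 1 and *Ikzf1* had 4.04 without infarct 3. For every factor, each infarct library lay above each contralateral library, as it did for 37.6% of tested genes. In bulk tissue, more cells of a type and more RNA per cell cannot be told apart.

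**Figure D1:**
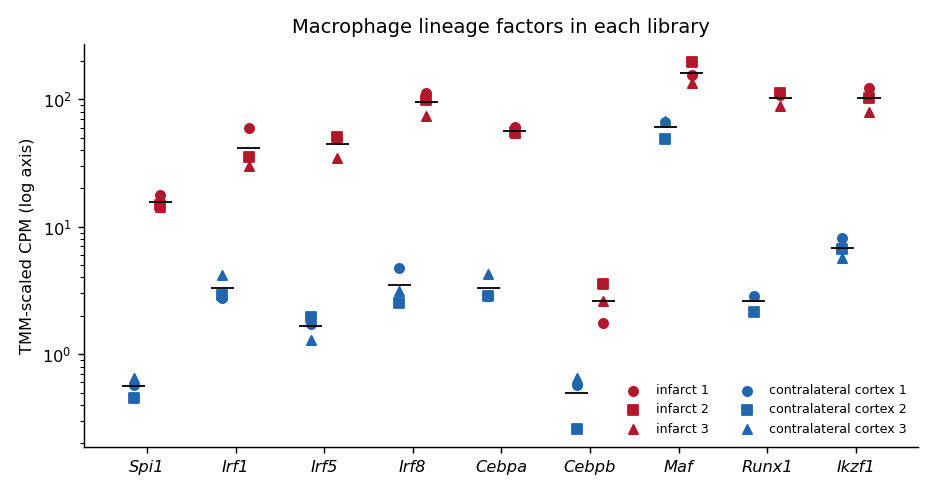
Level of each factor in each library as TMM-scaled CPM on a log axis, with infarcts in red, contralateral cortices in blue, and horizontal lines at the means of 3 libraries. The infarct points lie above the contralateral points for all 9 factors, with the narrowest gap between regions for *Maf*, whose lowest infarct value was 1.99 times its highest contralateral value.

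Of the factors that act early in blood formation, *Runx1* and *Spi1* varied little among infarcts. *Runx1* (ENSMUSG00000022952, chr16:92601466-92826149 on the minus strand of GRCm38) had 109, 112, and 88.1 CPM in infarcts 1, 2, and 3, and 2.87, 2.15, and 2.86 CPM in contralateral cortices 1, 2, and 3. The infarct values were close together and far from the contralateral values, with the lowest infarct 30.7 times the highest contralateral cortex. *Runx1* had the largest change of the 9, a rise of 5.29 ± 0.19 on the log2 scale (± SE). Its Benjamini-Hochberg adjusted *p* in the quasi-likelihood test of edgeR, which gave all adjusted values, was 1.64e-07. Of all tested genes, 96.7% had a lower log2 fold change.

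*Spi1* (ENSMUSG00000002111, chr2:91082390-91115756, plus strand), the PU.1 gene, had 17.7, 14.9, and 14.2 CPM in infarcts and 0.575, 0.456, and 0.646 CPM in contralateral cortices. Those contralateral values rest on 11, 7, and 7 counts, and 7 counts have an exact 95% Poisson interval of 2.81 to 14.4, which covers counting error only. The 222, 203, and 208 counts of the infarcts were well above it, and the regions did not overlap. *Spi1* rose by 4.80 ± 0.28 on the log2 scale (± SE, edgeR adjusted *p* = 4.75e-07). *Ikzf1* (ENSMUSG00000018654, chr11:11685003-11772926, plus strand) had 123, 103, and 79.4 CPM in infarcts and 8.15, 6.71, and 5.72 CPM in contralateral cortices. Infarct 1 was highest and infarct 3 lowest, and even infarct 3 lay 9.74 times above the highest contralateral value. *Ikzf1* rose by 3.88 ± 0.21 (log2 ± SE, edgeR adjusted *p* = 5.92e-07).

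Among the 7 factors with windows in the RefSeq promoter table, only *Runx1* has a match to the RUNX motif near a start site. The windows, on GRCm38.p6, run from 250 bases before a start to 50 bases after it, and the table gives *Runx1* a distal and a proximal start. The motif, TGTGGTT on either strand, occurs in 5.27% of all 32851 windows. At the distal start it occurs as its reverse complement AACCACA at bases 28 and 36 after the start, in the stretch shown here because it holds both copies in capitals (chr16:92826025-92826053, minus strand).
Runx1 distal start: ataaacAACCACAgAACCACAagttgggt

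All 3 interferon regulatory factors were far higher in infarcts. *Irf8* (ENSMUSG00000041515, chr8:120736358-120756694, plus strand), the partner of PU.1, had 112, 99.1, and 73.8 CPM in infarcts and 4.75, 2.54, and 3.14 CPM in contralateral cortices. Contralateral cortex 1 stood above the other contralateral libraries, yet every infarct had at least 15.5 times its level. *Irf8* rose by 4.75 ± 0.25 (log2 ± SE, edgeR adjusted *p* = 6.72e-07). *Irf5* (ENSMUSG00000029771, chr6:29526625-29541871, plus strand), which acts below toll-like receptors, had 48.5, 50.2, and 34.9 CPM in infarcts and 1.72, 1.95, and 1.29 CPM in contralateral cortices. The regions were again separate, and replicate 3 was the lowest library in both. *Irf5* rose by 4.72 ± 0.23 (log2 ± SE, edgeR adjusted *p* = 3.57e-07). Its exons share 411 bases, 14.1% of its exon length, with *Tnpo3* on the other strand. *Tnpo3*, a nuclear import receptor, had a log2 fold change of -0.41 and was not called.

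*Irf1* (ENSMUSG00000018899, chr11:53770014-53778374, plus strand), the interferon gamma-induced member, had 59.4, 35.2, and 30.03 CPM in infarcts and 2.77, 2.93, and 4.15 CPM in contralateral cortices. Infarct 1 was 1.98 times infarct 3, and the lowest infarct was still 7.23 times the highest contralateral cortex. *Irf1* rose by 3.68 ± 0.29 (log2 ± SE, edgeR adjusted *p* = 6.79e-06), or by 3.35 without infarct 1. Its coefficient of variation over infarcts, 37.7%, was the highest of the 9 factors, against 6.57% for *Cebpa*.

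Among the promoter windows, those at the annotated starts of *Irf1* and *Irf8* hold the letters of the interferon gamma-activated site, TTCNNNGAA. This motif reads the same on both strands and occurs in 8.30% of all windows. The 250 bases before each start are given here because they hold these matches, in capitals, which begin at position -90 of *Irf1* (chr11:53769764-53770013, plus strand) and at positions -171 and -153 of *Irf8*, counted back from the start (chr8:120736108-120736357, plus strand).
Irf1 upstream: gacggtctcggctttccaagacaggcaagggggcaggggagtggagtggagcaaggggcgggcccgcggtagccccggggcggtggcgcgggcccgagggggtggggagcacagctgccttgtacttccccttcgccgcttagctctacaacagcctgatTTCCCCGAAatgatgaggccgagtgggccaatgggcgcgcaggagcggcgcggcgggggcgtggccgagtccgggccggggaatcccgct
Irf8 upstream: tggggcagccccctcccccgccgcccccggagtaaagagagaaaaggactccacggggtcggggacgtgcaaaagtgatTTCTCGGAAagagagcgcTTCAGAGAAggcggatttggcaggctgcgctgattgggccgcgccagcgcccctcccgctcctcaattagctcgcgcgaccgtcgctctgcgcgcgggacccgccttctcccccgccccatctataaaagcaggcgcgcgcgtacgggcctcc
Over all factors, 7 had promoter windows, 11 in number, and *Spi1* and *Maf* had none in the table. The interferon gamma-activated site was in 3 of the 11, the third being the inner start of *Ikzf1*, and the Ikaros letters TGGGAA were in 3, at *Irf5* and at both starts of *Irf8*, against 25.6% of all windows. The letters searched for PU.1 (GAGGAAG, 13.6% of all windows), C/EBP (TTGCNNAA, 10.8%), the MAF half-site (TGCTGAC, 4.67%), the interferon-stimulated response element (GAAA, any 2 bases, GAAA, 3.44%), and the composite ETS and IRF element (GGAA, any 2 bases, GAAA, 2.72%) were in none of the 11. An absent match says only that these letters are not in these windows, and a match is a description of the sequence.

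The C/EBP factors stood apart from each other in level. *Cebpa* (ENSMUSG00000034957, chr7:35119293-35121928, plus strand), which directs the granulocyte and monocyte fate, had 60.9, 54.9, and 54.1 CPM in infarcts and 2.87, 2.86, and 4.25 CPM in contralateral cortices. The infarct values were nearly equal, and the lowest was 12.7 times the highest contralateral value. *Cebpa* rose by 4.11 ± 0.19 (log2 ± SE, edgeR adjusted *p* = 3.42e-07). *Cebpb* (ENSMUSG00000056501, chr2:167688915-167690418, plus strand), the inflammatory member, had the fewest counts of the 9, with 22, 48, and 38 in infarcts and 11, 4, and 7 in contralateral cortices, or 1.75, 3.52, and 2.59 CPM against 0.575, 0.260, and 0.646 CPM. Infarct 1 was the lowest infarct, and the regions did not overlap. *Cebpb* rose by 2.41 ± 0.48 (log2 ± SE, edgeR adjusted *p* = 0.00137), with the widest error of the 9. Its exon shares 312 bases, 20.7% of its length, with *Tmem189* on the other strand, which was upregulated as well (log2 fold change 1.71, infarct mean 39.7 ± 2.37 and contralateral mean 12.1 ± 1.29 CPM, SD, n = 3 each). The strand setting of the counting is not given in the sources used here, so the counts of these overlapping pairs are uncertain over the shared bases. Overlaps of other factors were smaller, from 0.88% of the exon length of *Runx1* (with *Gm26626*) to 5.34% of that of *Maf* (with *Gm15655*), and no library had more than 5 counts on either of those antisense genes.

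*Maf* (ENSMUSG00000055435, chr8:115682942-115707794, minus strand), the tissue macrophage factor, was the only member above 10 CPM in a contralateral cortex. It had 156, 195, and 135 CPM in infarcts and 66.2, 48.4, and 68.1 CPM in contralateral cortices. All infarcts were above all contralateral cortices, by 1.99 times at the closest. *Maf* had the smallest rise of the 9, by 1.41 ± 0.19 (log2 ± SE, edgeR adjusted *p* = 0.000128). *Maf* is also known from cortical interneurons that arise in the medial ganglionic eminence. Of 8 markers of those interneurons, 7 were downregulated in infarcts and *Sox6* was not called, none was at 0, and their summed level was 139 to 233 CPM in infarcts and 960 to 991 CPM in contralateral cortices. Their part in the contralateral level of *Maf* was not tested.

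Levels of different genes were compared per kilobase of the union of annotated exons. In infarcts the means ran from *Cebpa* (21.5 CPM per kilobase) through *Maf* (19.7), *Ikzf1* (17.6), *Irf5* (15.3), *Irf8* (13.5), *Irf1* (10.5), and *Runx1* (8.58) to *Spi1* (5.79) and *Cebpb* (1.74). Neighbors in this order overlapped in their libraries down to *Runx1*. *Runx1* was above *Spi1*, and *Spi1* above *Cebpb*, in all infarcts. In contralateral cortices *Maf* led with 7.39 CPM per kilobase, followed by *Cebpa* (1.26), *Ikzf1* (1.19), *Irf1* (0.826), *Irf5* (0.570), *Irf8* (0.493), *Cebpb* (0.328), *Runx1* (0.219), and *Spi1* (0.207). Only *Maf* over *Cebpa* and *Irf1* over *Irf5* were separate there. *Runx1* thus had the largest change and a low place in both orders. With the longest transcript as the length, *Irf8* led the infarct order, *Maf* still led the contralateral order, and 3 of 9 factors kept their contralateral rank.

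The make-up of the group shifted away from *Maf*. The summed level of the 9 factors was 127.7, 119.8, and 95.1 CPM per kilobase in infarcts and 13.3, 10.4, and 13.7 in contralateral cortices. *Maf* held 17.3% ± 2.498 of this sum in infarcts and 59.0% ± 2.22 in contralateral cortices (SD, n = 3 each), with no overlap of the regions. *Runx1* went the other way, from 1.75% ± 0.0399 of the contralateral sum to 7.54% ± 0.377 of the infarct sum. *Irf5*, *Irf8*, *Spi1*, *Cebpa*, and *Ikzf1* also held a larger share in every infarct than in any contralateral cortex, whereas the shares of *Irf1* and *Cebpb* overlapped. Shares of the same sum are tied, so a smaller share of *Maf* by itself raises the others. In count ratios to single factors, *Ikzf1* lost against 4 and gained against 2, and *Cebpa* lost against 2 and gained against 2, with overlap for the rest. A background over all tested genes is not given for the shares. No test accompanies these shares, since an exact permutation test of 3 against 3 libraries cannot give a *p* under 0.1.

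**Figure D2:**
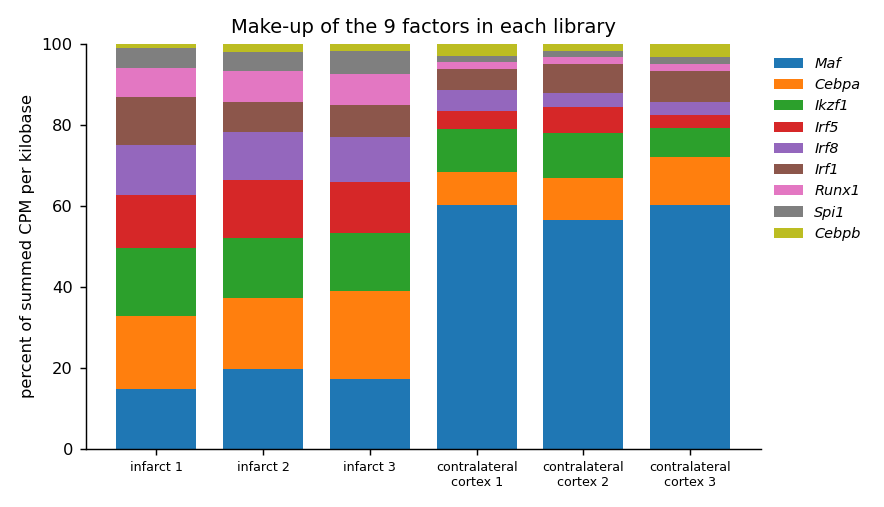
Share of each factor in the summed CPM per kilobase of the 9 factors, in percent, with a stacked bar for each library. *Maf*, the bottom segment, takes 14.8% to 19.8% of the bars of infarcts and 56.4% to 60.3% of those of contralateral cortices.

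Ratios of 2 factors within a library do not depend on library scaling, and 36 such pairs were formed. In 27 of them, all infarct ratios lay on the same side of all contralateral ratios. This count is near the background, since the same held for 73.7% of all pairs formed from the 14989 tested genes with counts in every library. *Runx1* gained on each of the other 8 factors, with a log2 shift of -0.49 for *Spi1* over *Runx1* and of -3.89 for *Maf* over *Runx1* at the ends. *Maf* lost against each of the other 8, and *Cebpb* lost against 6 and gained against *Maf* alone. The ratios of *Spi1* to *Irf8*, *Spi1* to *Irf5*, and *Irf5* to *Irf8* overlapped between regions, with mean shifts of 0.01, 0.06, and -0.05. The fold changes of *Spi1*, *Irf5*, and *Irf8* thus lay closer together than their standard errors.

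**Figure D3:**
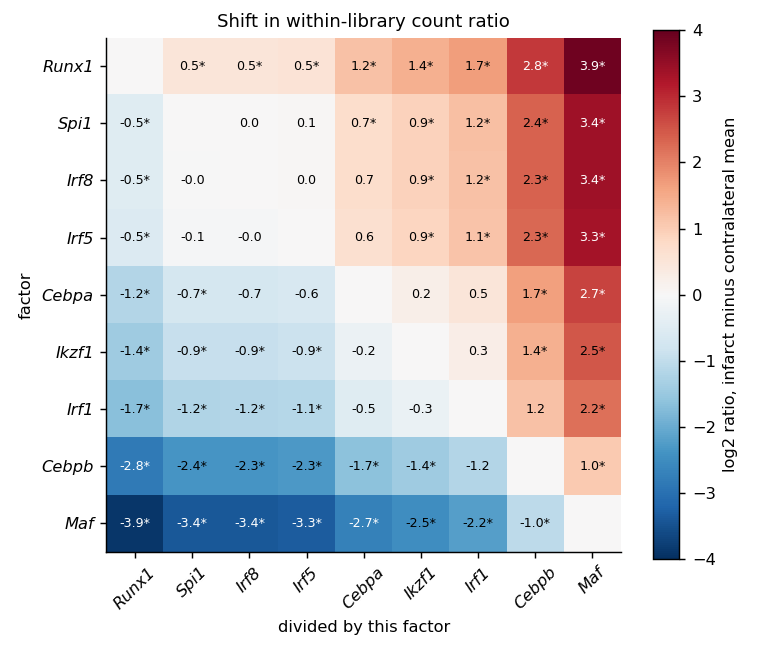
Shift of the log2 count ratio of each factor (row) to each other factor (column), as the infarct mean minus the contralateral mean over 3 libraries each. An asterisk marks pairs whose infarct and contralateral ratios did not overlap, which is 27 of 36 pairs, and the row of *Runx1* is positive throughout while that of *Maf* is negative throughout.

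The factors were also set against myeloid genes of the same library. Against the summed CPM of 10 pan-myeloid genes (*Aif1*, *Cd68*, *Fcer1g*, *Tyrobp*, *Laptm5*, *Ctss*, *Csf1r*, *Itgam*, *Cyba*, and *Lcp1*), 4 factors were higher in every infarct than in every contralateral cortex, with log2 ratio shifts of 1.38 for *Runx1*, 0.89 for *Spi1*, 0.88 for *Irf8*, and 0.83 for *Irf5*. Of all tested genes outside the reference, 4.2% were higher in this way and 90.2% were lower. *Maf* and *Cebpb* were lower, as most genes were, with shifts of -2.51 and -1.47, and *Cebpa*, *Ikzf1*, and *Irf1* overlapped. *Maf* amounted to 3.65%, 6.38%, and 4.56% of the pan-myeloid sum in infarcts and to 29.6%, 25.03%, and 26.7% in contralateral cortices. *Csf1r* weighed heavily in the contralateral sum, with a mean of 118 CPM beside sums of 194 to 256 CPM, and its log2 fold change was 1.96. The median log2 fold change of the 10 reference genes was 4.81, which *Spi1* (4.80), *Irf8* (4.75), and *Irf5* (4.72) did not exceed. Among the factors, only *Maf* was on the same side, without overlap, for all 3 references tried. That side, lower in infarcts, was also the side of most tested genes for each reference. It therefore sets *Maf* apart from the other factors but not from tested genes at large. The share of tested genes lower against all 3 references is not given here. Against *Ptprc*, the CD45 gene of all leukocytes, 8 factors were lower in infarcts, as were 95% of all tested genes, and *Runx1* overlapped (shift -0.47). Against *Aif1*, the gene of the microglia and macrophage marker IBA1, 5 were higher, *Maf* was lower (-1.76), and *Irf1*, *Cebpb*, and *Ikzf1* overlapped. Among all tested genes, 5.58% were higher and 85.3% were lower against *Aif1*. *Aif1* had only 14, 14, and 8 counts in contralateral cortices 1, 2, and 3, so ratios to it carry a large counting error.

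**Figure D4:**
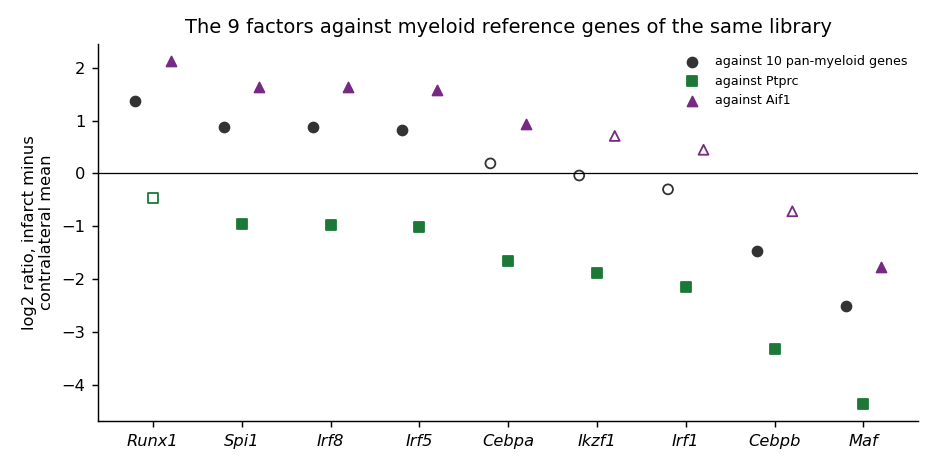
Shift of the log2 ratio of each factor to a myeloid reference of the same library, infarct mean minus contralateral mean, for the sum of 10 pan-myeloid genes (circles), *Ptprc* (squares), and *Aif1* (triangles). Filled symbols mark ratios that did not overlap between regions. Among the factors, only *Maf* is filled and below 0 for all references, and most tested genes were also lower against each reference.

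Relatives of the 9 factors had a lower median change. Of 31 other members of the same families, 27 passed the filter, 18 were upregulated, *Runx1t1* and *Ikzf4* were downregulated, and 7 were not called, with a median log2 fold change of 2.03. *Cebpe*, *Spic*, *Mafa*, and *Nrl* did not pass the filter. Among the IRFs, *Irf7*, the amplifier of type I interferon, rose most, with a log2 fold change of 6.47 from 0.209 ± 0.0941 to 20.1 ± 3.08 CPM. *Irf4*, used by B cells and plasma cells, had 827, 403, and 213 counts in infarcts and 38, 25, and 16 in contralateral cortices (log2 fold change 4.41, standard error 0.58). The values of *Irf4* differed several-fold among infarcts. *Irf9* and *Irf3* rose with 2.61 and 1.49, while *Irf2* (0.97) was not called.

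*Cebpd*, a C/EBP factor of acute inflammation, rose with 4.14, close to *Cebpa*. *Cebpg* (0.97) and *Ddit3* (-0.18), the latter a stress-induced member, were not called. Scaled by library totals, *Irf2* and *Cebpg* passed both thresholds, with 1.18 and 1.17. Of the ETS factors of blood cells, 6 of 7 tested rose. They were *Elf4* (5.15), *Elf1* (3.29), *Fli1* (2.94), *Ets1* (2.59), *Etv6* (1.29), and *Spib*, the B cell and plasmacytoid relative of PU.1, for which a contralateral level of 3 counts per library gives at least a 104-fold rise. *Ets2* had -0.60 and was not called.

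In the MAF family, the small MAF genes *Maff* (4.0) and *Mafk* (2.04) rose, beside 1.41 for *Maf*, and *Mafg* (-0.06) was not called. Of the RUNX group, *Runx2* (2.03), *Cbfb* (1.55), which encodes the shared binding partner, and *Runx3* rose, the last from 0 counts in every contralateral library to 58, 44, and 42, at least 17.0-fold over 3 counts per library. *Runx1t1* fell with -1.14, and its call was lost when scaled by library totals (-0.93). *Cbfa2t3* (-0.67) was not called. In the Ikaros family, *Ikzf2* (1.76) and *Ikzf3* rose, *Ikzf3*, a lymphoid member, by at least 114-fold over 3 counts per contralateral library. *Ikzf4* fell with -1.58, and *Ikzf5* (-0.46) was not called.

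**Figure D5:**
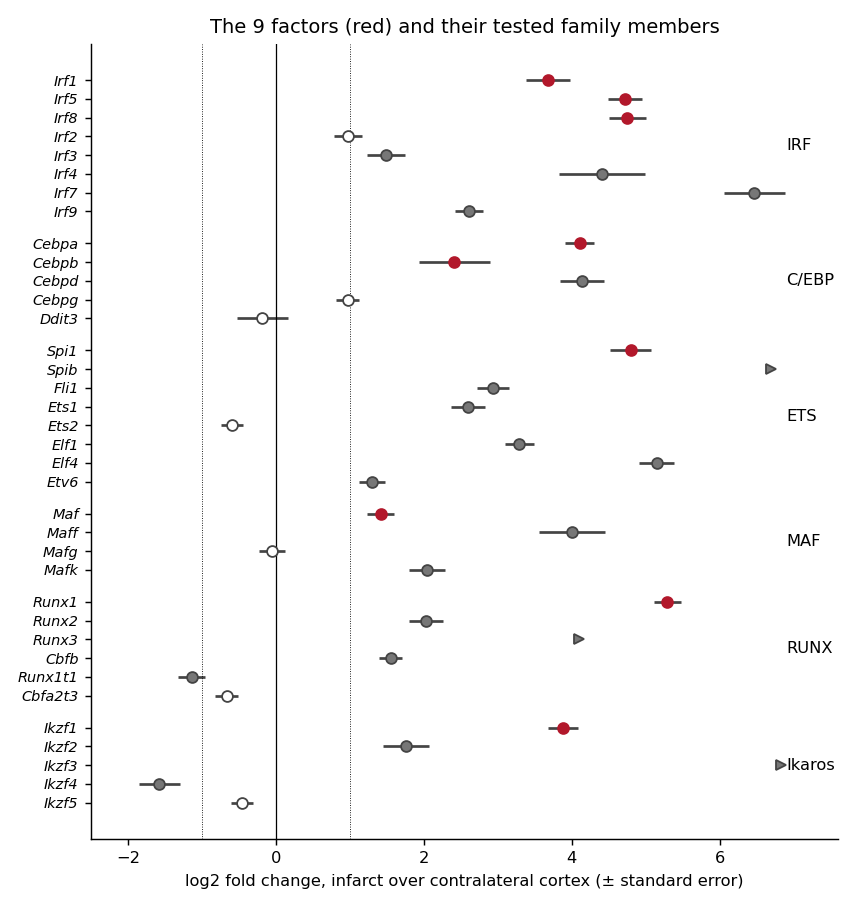
Log2 fold change of infarct over contralateral cortex, with bars for ± 1 standard error, for the 9 factors (red) and 27 tested relatives (gray), grouped by family. Filled symbols passed both thresholds, open symbols did not, triangles stand at the lowest change that 3 counts per contralateral library allow, and dotted lines mark a fold change of 2 in either direction.

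Genes that textbooks give as targets of the factors were upregulated nearly throughout, beside 25.7% of all tested genes. All 11 PU.1 targets rose, with a median log2 fold change of 4.73, beside the 4.80 of *Spi1*. They ranged from *Csf1r*, the CSF1 receptor (1.96, from 118 ± 20.7 to 459 ± 69.9 CPM), to *Csf2rb*, a subunit of the GM-CSF receptor (6.51). Of 14 IRF targets, 13 rose, among them *Cybb* of the phagocyte oxidase (8.31) and *Ciita*, the switch of MHC class II genes (4.06), and the cytokine gene *Il18* had -0.01. Of 11 C/EBP targets, 8 were tested and 7 rose, including lysozyme *Lyz2* (8.45), and *Ptgs2* had 0.36 and was not called. The primary granule genes *Mpo* and *Elane* and the cytokine *Il6* did not pass the filter, with *Elane* at 0 counts in all 6 libraries. Of 13 MAF targets, 11 were tested and 10 rose. The complement genes *C1qa*, *C1qb*, and *C1qc* rose with 4.49, 4.77, and 4.32, while the scavenger receptor *Cd163* had 0.46 and was not called. Of the PU.1 targets, *Csf1r*, *Itgam*, *Tyrobp*, and *Ptprc* also served as myeloid references above. Whether the factors acted on any of the listed targets was not tested.

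Other factors of microglia and tissue macrophages were mixed. Of 16, 9 were upregulated, *Mef2c* was downregulated, and 6 were not called, with a median log2 fold change of 1.78. *Id3* (2.97), *Nr1h3* (3.61), which encodes LXRα, *Mitf* (2.51), and *Pparg* (2.21) rose. *Sall1*, which marks microglial identity, had 0.47 and was not called. *Mef2c*, used by microglia and by excitatory neurons, fell with -3.04, from 1904 ± 127 to 232 ± 32.5 CPM. Of 12 factors of other blood lineages, 7 passed the filter and 6 rose, including *Pax5* of B cells (7.80), *Prdm1* of plasma cells (4.24), and *Tcf7* of T cells (2.69). The red cell factors *Gata1*, *Klf1*, and *Gfi1b* did not pass the filter, and *Gfi1b* was at 0 in all 6 libraries.

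Markers of several cell types moved with these factors. All 8 monocyte and macrophage markers rose, with a summed level of 5564 to 9121 CPM in infarcts and 55.7 to 71.8 CPM in contralateral cortices, and none was at 0 in all libraries of a region. *Lyz2* made up most of the infarct sum, with 6449 ± 1628 CPM. Of 8 homeostatic microglia markers, 3 rose, *Slc2a5* fell, and 4 were not called, with sums of 850 to 880 CPM against 291 to 336 CPM. All 7 B cell markers rose, from sums of 0.326 to 0.831 CPM to 141 to 331 CPM, with *Fcmr* and *Blk* at 0 in every contralateral cortex. All 8 T cell markers rose, from 5.72 to 7.49 CPM to 46.3 to 182 CPM, with *Cd8a* and *Cd2* at 0 in every contralateral cortex. The call of *Trbc2*, a T cell receptor chain, was lost under 7 alternatives, among them limma voom (adjusted *p* = 0.062), no filter (0.085), and leaving out infarct 1 (log2 fold change 0.91) or any contralateral library (adjusted *p* from 0.058 to 0.083). Of 8 dendritic cell markers, 5 rose, with sums of 324 to 497 CPM against 41.6 to 45.1 CPM. *Flt3* (-0.54), *Zbtb46* (-0.39), and *Siglech* (0.02) were not called, and *Itgax* made up most of the infarct sum, with 334 ± 85.4 CPM. Of 8 neutrophil markers, 4 passed the filter and rose, with sums of 56.2 to 71.6 CPM against 4.75 to 6.00 CPM. *Csf3r*, also listed above as a PU.1 and C/EBP target, made up most of the infarct sum, with 49.0 ± 4.41 CPM. *Ly6g*, *Mpo*, *Elane*, and *Retnlg* were at 0 in every contralateral cortex, and *Elane* was at 0 in every infarct. In infarcts 1, 2, and 3, *Ly6g* had only 0, 2, and 0 counts, *Mpo* 4, 1, and 10, and *Retnlg* 1, 7, and 11. Of 8 plasma cell markers, which include *Irf4*, 7 were tested and rose, with sums of 453 to 2505 CPM against 98.8 to 117 CPM, and *Tnfrsf17* did not pass the filter. *Jchain* weighed heavily in these sums, with 2003, 723, and 162 CPM in infarcts 1, 2, and 3. All 8 markers of fibroblasts and leptomeninges rose, with sums of 7219 to 8932 CPM against 198 to 250.4 CPM and a median log2 fold change of 6.44. Of 8 endothelial markers, 4 rose and 4 were not called, with sums of 372 to 541 CPM against 247 to 271 CPM. Of 8 oligodendrocyte markers, 4 rose and 4 were not called, with sums of 4351 to 6991 CPM against 2183 to 2609 CPM, and the call of *Cnp* was lost without infarct 3 (log2 fold change 0.89). Of 8 astrocyte markers, 3 rose, *Slc1a2* fell, and 4 were not called, with sums of 5308 to 7663 CPM against 13197 to 14206 CPM. *Slc1a2* alone had 12297 ± 624 CPM in contralateral cortices and 2933 ± 859 CPM in infarcts. The median log2 fold change of the 8 astrocyte markers was 0.62. Of 5 red blood cell genes, 2 were tested and rose, with sums of 8.08 to 30.2 CPM against 0.846 to 4.28 CPM. The call of *Hbb-bs* was lost with no filter (adjusted *p* = 0.080). That of *Hba-a1* was lost when tested against a fold change of 2 (edgeR glmTreat, adjusted *p* = 0.054). No fibroblast, endothelial, oligodendrocyte, or astrocyte marker was at 0 in all libraries of a region. The part of each cell type in the rise of the 9 factors was not tested.

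Among infarcts, most factors were lowest in the same library. Infarct 3 had the lowest level of 8 of the 9 factors, and *Cebpb* was lowest in infarct 1. Infarct 1 was highest for 5 factors and infarct 2 for 4. The summed CPM of the 9 was 689, 669, and 513 in infarcts 1, 2, and 3. Infarct 3 also had the highest pan-neuronal sum of the infarcts and the lowest sum of monocyte and macrophage markers, and the part of these differences was not tested.

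Genes that followed a factor most closely across all 6 libraries were sought by the root mean square distance between their log2 CPM, each centered on its mean. For *Spi1* they were *Mrc2* (0.09), *Ctsz* (0.10), and *Tagln2* (0.10). For *Runx1* they were *Tlr13* (0.11), *Lipa* (0.13), and *Fcgr2b* (0.13), and for *Ikzf1* they were *Abcg3* (0.09), *Tmem45a* (0.11), and *Cyp4v3* (0.12). The difference between regions dominates this measure, which draws on infarct and contralateral libraries together. *Irf8* was nearest to *Cd180* (0.12), *Kdelr3* (0.14), and *Ctsh* (0.15), *Irf5* to *Sp110* (0.08), *H2-Q4* (0.10), and *Plek* (0.14), and *Irf1* to *Igsf10* (0.13), *Ninj1* (0.15), and *BC147527* (0.15). *Cebpa* was nearest to *Bicc1* (0.09), *Arpc1b* (0.10), and *Ftl1* (0.10). *Cebpb* was nearest to *Egr2* (0.13), which shared its peak in infarct 2, and then to *Lsr* (0.14) and *Rdh5* (0.15). *Maf* was nearest to *Patj* (0.09), *Gpr4* (0.09), and *Tmem100* (0.09), with log2 fold changes of 1.49, 1.46, and 1.57.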

How the data were processed

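RNA from 3 infarcts and 3 contralateral cortices was made into stranded mRNA libraries and sequenced as paired reads. Per the submitters' processing notes and the study's methods, the authors used bcl2fastq 2.19, Trimmomatic 0.32, STAR 2.5.2b on GRCm38, and htseq-count. The deposited values are raw counts per Ensembl gene, without normalization. The version, annotation, and strand setting of htseq-count are not given in the sources used here. Tallies without a gene, 5 per table and 26.6% to 34.3% of a library, were left out. Libraries held 11943570 to 19933962 counts on genes, and intervals describe counting error only, since no molecular identifiers mark single molecules. Identifiers were matched to GENCODE M21 (45229 of 46078), for symbols, positions, and exon lengths.

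Counts were tested in R 4.3.3 with edgeR 4.0.16 (filterByExpr, TMM, robust glmQLFit and glmQLFTest, region as the only term, biological coefficient of variation 0.22), with Benjamini-Hochberg adjustment over the 15554 tested genes. The thresholds for a call were 0.05 for the adjusted *p* and 1 for the size of the log2 fold change. The edgeR fit was tried on simulated counts in which 200 genes were changed, far fewer than the genes called here. That trial therefore does not test the scaling between regions that differ as widely as these. Where a region held 3 counts or fewer in every library, folds were computed against 3 counts per library and are lower bounds. Alternatives were DESeq2 1.42.0, limma 3.58.1 voom, other scalings and filters, glmTreat, thinned counts, the replicate number as a block, and each library left out. Tables and plots were made with Python 3.11.15, pandas 2.3.3, and matplotlib 3.10.9. Promoter windows came from RefSeq on GRCm38.p6. The 9 factors and all gene lists were chosen with earlier results of these data known. Besides the factors and lists, the text names genes whose exons overlap those of a factor and the 3 tested genes nearest to each factor in pattern. Some genes of the lists are not reported here.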

Additional observations from a re-analysis of the deposited data

How the results depend on the processing

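All 9 factors kept their call in every alternative in which they were tested. When every library had to hold 10 counts or more, 7 were tested and called, since *Spi1* and *Cebpb* did not pass that filter. With each library left out in turn, log2 fold changes ranged from 3.35 to 3.88 for *Irf1*, from 2.09 to 2.65 for *Cebpb*, and from 1.26 to 1.54 for *Maf*. The same filter lowered the upregulated genes of the factor and target lists from 81 to 52 and those of the marker lists from 64 to 35, as fewer genes were tested. The number of factors whose ratio to a myeloid reference was lower in all infarcts was 2 against the pan-myeloid sum, 8 against *Ptprc*, and 1 against *Aif1*, and it was 2 to 3 against the pan-myeloid sum with a library left out. At most 11 counts per contralateral library stand behind *Spi1* and *Cebpb*, which limits how well their fold changes are known.

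Same-numbered libraries of the regions did not deviate together, with correlations of -0.190, 0.101, and 0.0011 for numbers 1, 2, and 3, and no infarct library correlated best with its own number. These values gave no sign of pairing by number, and whether same-numbered libraries share a mouse is not known. With the replicate number as a block, edgeR called 3945 upregulated and 3222 downregulated genes, against 3999 and 3256 without it, and DESeq2 called 4169 and 3344. All 9 factors were called in both.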
